A study of Mus musculus with 9 samples.

Results

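Genes best known from the vessel wall were followed in macrophages sorted from mouse liver. The set held 9 genes, Cdh5, Pecam1, Vcam1, Icam1, Icam2, Esam, Kdr, Lyve1 and Dnase1l3, chosen by name from the 24312 genes of the expression table, and all 9 had an entry. Bulk RNA-seq had been performed on Ly6C-low F4/80+ liver macrophages of male wild-type C57BL/6J mice that were 6 to 12 weeks old when feeding began. One group received a normal diet (ND), and the others CDA-HFD, a choline-deficient high-fat diet with defined L-amino acids that leads to fatty, inflamed and scarred liver, for 7 or 10 weeks. There were 3 libraries in each of the 3 groups (ND 1 to 3, 7w 1 to 3, 10w 1 to 3), labelled as biological replicates and described in the study as different animals. Neither a transgene nor a gene deletion was present in any group. The gate did not use Tim4, the receptor made from Timd4, so it took both resident Kupffer cells and Tim4-negative macrophages derived from monocytes. The ND libraries were used in both time-point comparisons, so those comparisons are not independent of each other.

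Liver sinusoids are lined by a fenestrated endothelium, and Kupffer cells sit on its luminal side. Endothelial cells hold together through homophilic adhesion proteins such as VE-cadherin and PECAM-1, take up growth signals through VEGF receptors, and catch leukocytes through immunoglobulin-type ligands for integrins. Transcripts of some of these proteins are also made by leukocytes and macrophages, so in a sorted population an endothelial-type transcript can come from the sorted cells or from endothelial cells carried along. In bulk RNA, fewer cells of a type and less RNA per cell cannot be told apart.

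The labelled cell type was set against marker genes. These lists were chosen with earlier results of these data known, so their counts are a description and not an independent check. List counts throughout compare both CDA-HFD groups with ND. In that comparison limma called 22.8% of all 11783 genes tested higher and 24.3% lower, at an adjusted p below 0.05. Of 25 Kupffer cell identity genes, 23 were lower under CDA-HFD and 1 was higher, with a median log2 difference of −1.10 against −0.03 over all genes. Timd4 stood between 200.2 and 207 FPKM in ND and between 2.21 and 18.5 in the 6 CDA-HFD libraries, whereas Clec4f, a Kupffer cell lectin, still stood between 146 and 186 after values of 292 to 307 in ND. The Clec4f values in ND lie near the upper limit that removal of duplicate reads sets (an estimated 320.5 to 372 FPKM), so its decrease is compressed. FPKM counts fragments in proportion to transcript length and to the mapped reads of the library. Monocyte markers moved the other way, with 10 of 13 tested genes higher and 2 lower. The name Kupffer cells therefore describes the ND libraries better than the CDA-HFD libraries, and the neutral term liver macrophages is used here. Hepatocyte markers were lower in CDA-HFD, 21 of 25 tested, with a median log2 difference of −1.80, and 2, Hp (2.03) and Ass1 (3.57), were higher. Their summed level was 805 to 1397 FPKM in ND and 489 to 588 in CDA-HFD. Much of the CDA-HFD sum was Trf (means of 233 at 7 weeks and 211 at 10 weeks) and Hp (106 and 96.3). The sum therefore understates the decrease of most of these markers. The estimated depth was 5370000 to 6240000 reads per library.

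Promoter sequences were at hand for 2 of the 9 genes and are shown because these genes gave different results. Icam1 is a textbook target of NF-kB, a transcription factor of inflammation, and was slightly lower under CDA-HFD, whereas Kdr was the gene called higher. The stretches are the 250 bases before the RefSeq transcription start (GRCm38.p6), at chr9:21015690-21015939 on the plus strand for Icam1 and at chr5:75978456-75978705 on the minus strand for Kdr, written 5′ to 3′ in the direction of the gene. Capitals mark GGAA and its reverse complement, the core of sites bound by ETS factors.
Icam1: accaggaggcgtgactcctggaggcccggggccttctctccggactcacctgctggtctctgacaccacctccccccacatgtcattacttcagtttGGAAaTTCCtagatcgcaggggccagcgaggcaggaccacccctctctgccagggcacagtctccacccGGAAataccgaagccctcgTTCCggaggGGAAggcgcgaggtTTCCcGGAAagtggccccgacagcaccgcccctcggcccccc
Kdr: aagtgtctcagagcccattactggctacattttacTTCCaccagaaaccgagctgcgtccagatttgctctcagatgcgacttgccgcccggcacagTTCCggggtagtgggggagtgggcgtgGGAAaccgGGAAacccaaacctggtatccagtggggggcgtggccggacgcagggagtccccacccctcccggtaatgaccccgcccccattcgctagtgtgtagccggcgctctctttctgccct
Motifs were chosen after the sequences had been read and were searched on both strands. GGAA was found 7 times in the Icam1 stretch and 4 times in the Kdr stretch, and 93.5% of 32851 promoter stretches of this length held it at least once, with a median of 3. GGANNTTCC, an NF-kB-type palindrome that can overlap GGAA, occurred once in Icam1, 153 bases before the start, and not in Kdr; 3.59% of promoters held it. GGGCGG, the core of an Sp1 site, occurred 1 time in Icam1 and 2 times in Kdr and was present in 32.7% of promoters. These are matches of letters and not measured sites.

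The 9 genes fell into 3 kinds of response. Cdh5, Pecam1 and Dnase1l3 fell by large factors at both time points. Vcam1, Icam1 and Icam2 stayed abundant, with small decreases in the first 2. Esam, Kdr and Lyve1 were low in every library, and of these only Kdr was called higher. With both CDA-HFD groups averaged against ND, 5 genes were lower, 1 was higher and 3 were not called in limma at an adjusted p below 0.05. Of all 11783 genes tested, 47% were called in this comparison, 24.3% as lower and 22.8% as higher, so calls were common in the table as a whole, and no test of the 9 genes against that share was made. The median log2 difference was −0.18 over the 9 genes and −0.03 over all genes.

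**Figure D1:**
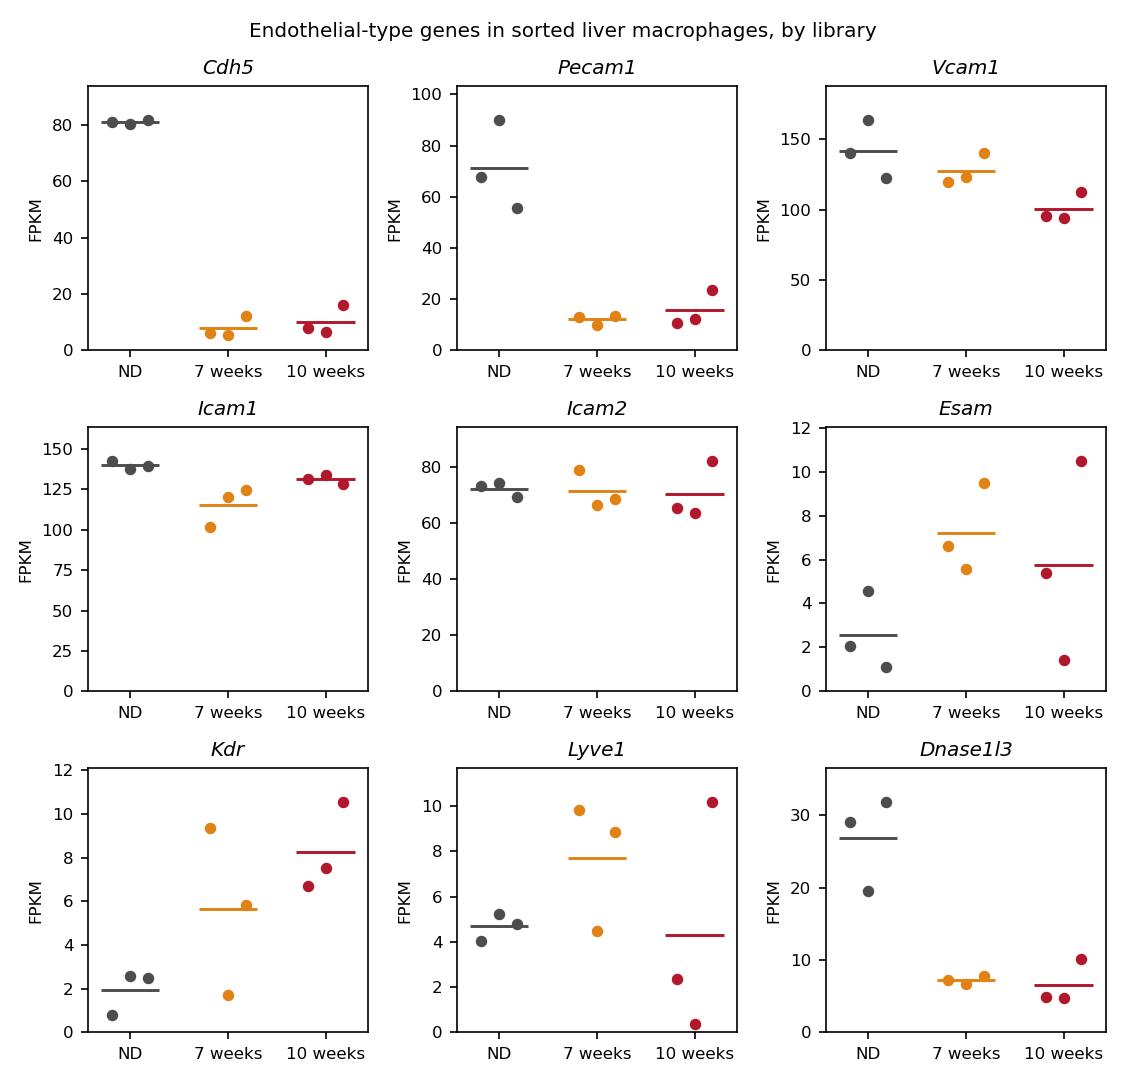
Level of each of the 9 genes in FPKM (vertical axes, starting at 0 and scaled per gene) in the 3 libraries of each group; points are libraries and bars are group means. Cdh5, Pecam1 and Dnase1l3 have all ND points above all CDA-HFD points, Icam2 shows groups that overlap throughout, and Lyve1 at 10 weeks runs from 0.353 to 10.2.

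Cdh5 encodes VE-cadherin, the calcium-dependent adhesion protein of endothelial junctions, and lies at chr8:104101625-104144511 on the plus strand of GRCm38. Its level was 81.0, 80.3 and 81.5 FPKM in ND 1 to 3. At 7 weeks it was 6.16, 5.57 and 12.05, and at 10 weeks 7.84, 6.37 and 16.2. The ND values lay within 2 FPKM of each other and far above every CDA-HFD value, among which 7w 3 and 10w 3 were the highest. The mean was 10.2-fold lower at 7 weeks and 7.98-fold lower at 10 weeks on the FPKM scale. In limma the log2(FPKM + 1) difference for CDA-HFD against ND was −3.12 (SE 0.27, adjusted p = 3.18e-06), the largest decrease among the 9 genes. A gene on the opposite strand, Gm29682, overlaps Cdh5 and was listed at 0 in every library.

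Pecam1 encodes PECAM-1 (CD31), a homophilic adhesion protein of endothelial cells, platelets and leukocytes, at chr11:106654217-106750628 on the minus strand. ND libraries gave 67.6, 89.8 and 55.8 FPKM. At 7 weeks the values were 13.2, 9.87 and 13.5, and at 10 weeks 10.9, 12.2 and 23.7. The groups did not overlap, although the ND libraries spread more widely than for Cdh5 (71.1 ± 17.3 against 80.9 ± 0.61, SD, n = 3). The decrease was 5.84-fold at 7 weeks and 4.56-fold at 10 weeks, with a log2 difference of −2.30 for both times together (SE 0.23, limma adjusted p = 6.64e-06). Within each library the ratio of Cdh5 to Pecam1 was 0.894 to 1.46 in ND and 0.468 to 0.891 under CDA-HFD.

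Dnase1l3 encodes a secreted endonuclease that digests DNA in chromatin and on microparticles, which in liver is made by sinusoidal endothelial cells and macrophages. It lies at chr14:7964533-7994573 on the minus strand. The ND values were 29.1, 19.5 and 31.8 FPKM. They were 7.24, 6.73 and 7.80 at 7 weeks and 4.84, 4.81 and 10.1 at 10 weeks. All 6 CDA-HFD libraries lay below the lowest ND library, and the level was 3.69-fold lower at 7 weeks and 4.07-fold lower at 10 weeks. The log2 difference was −1.82 (SE 0.23, limma adjusted p = 4.77e-05). Among 15 other nucleases and DNA sensors that were tested, 4 were lower and 1 was higher, with a median of 0.01. The genes lower by most were Aim2, a cytosolic DNA sensor (log2 −0.63), and Endog, a mitochondrial nuclease (−0.61), while Dnase1l1, a membrane-bound relative of Dnase1l3, was higher in each CDA-HFD library (104 to 118 FPKM) than in ND (65.5 to 77.5; log2 0.63, adjusted p = 3.36e-06 in limma).

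Vcam1 encodes the immunoglobulin-type ligand of the integrin α4β1 and lies at chr3:116109949-116129688 on the minus strand. ND 1 to 3 gave 140, 163 and 123 FPKM. Values were 120, 123 and 140 at 7 weeks and 95.6, 94.1 and 113 at 10 weeks. The 7-week values overlapped those of ND, and the 10-week values lay below every ND value. For both times together the log2 difference was −0.32 (SE 0.09, limma adjusted p = 0.0162). It was −0.15 at 7 weeks (adjusted p = 0.297) and −0.49 at 10 weeks (adjusted p = 0.00429), a 1.41-fold lower mean. With ND 1 left out the adjusted p over both times was 0.0537, and with ND 2 left out it was 0.0631, so the call rests on these libraries. An overlapping antisense gene, Gm43109, was not analysed here, and the counting was not stated to use strand.

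Icam1 encodes the ligand of the β2 integrins LFA-1 and Mac-1, at chr9:21015985-21028817 on the plus strand. It stood at 142, 138 and 139 FPKM in ND. The values were 102, 120 and 124 at 7 weeks and 131, 134 and 129 at 10 weeks. Every CDA-HFD library was below every ND library, yet by little: the means were 139.7, 115 and 131 FPKM in ND, 7 and 10 weeks. The log2 difference was −0.18 (SE 0.05, limma adjusted p = 0.0159) over both times, −0.28 at 7 weeks (adjusted p = 0.00364) and −0.09 at 10 weeks (adjusted p = 0.293). Without ND 1 the call over both times was lost (adjusted p = 0.0619). Gm47079 overlaps Icam1 on the opposite strand and was not analysed here. Of 23 NF-kB response genes, 14 were higher and 2 were lower, with a median of 0.54. Cxcl2 and Cxcl1, chemokines for neutrophils, were higher by 3.94 and 3.68 on the log2 scale, and Bcl3 and Tnfaip2 were lower (−0.57 and −0.40). Immediate early genes, which also respond to tissue dissociation and share Ier3 and Nfkbia with this list, were higher in 16 of 20 and lower in none, with a median of 0.90, and lipid-associated macrophage markers were higher in 14 of 15. The part of either in the NF-kB list was not tested.

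Icam2 encodes a further ligand of LFA-1, found on resting endothelium, platelets and leukocytes, and lies at chr11:106377656-106388075 on the minus strand. The ND values were 73.3, 74.4 and 69.4 FPKM. At 7 weeks 79.1, 66.6 and 68.6 were measured, and at 10 weeks 65.5, 63.8 and 82.1. The groups overlapped at both times, with the highest value in 10w 3 and the lowest in 10w 2. The log2 difference was −0.03 with a 95% interval of −0.22 to 0.15 (limma adjusted p = 0.766).

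Esam encodes an adhesion protein of endothelial tight junctions and platelets, at chr9:37528078-37538319 on the plus strand. It was measured at 2.06, 4.58 and 1.11 FPKM in ND. The values were 6.61, 5.59 and 9.48 at 7 weeks and 5.37, 1.44 and 10.5 at 10 weeks. The 7-week libraries all exceeded the ND libraries, while at 10 weeks 10w 2 fell within the ND range and 10w 3 was the highest of all. The log2 difference was 1.03 (SE 0.44) and did not pass the threshold (limma adjusted p = 0.0767). It passed without ND 2 (1.41, adjusted p = 0.0369) and without 10w 2 (1.33, adjusted p = 0.00856). At 7 weeks alone it was 1.29 (adjusted p = 0.0604), and it passed after quantile normalization (adjusted p = 0.0422) or with only these groups in the limma fit (adjusted p = 0.0166). By the estimated depth the values rest on 9.89 to 106 reads per library.

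Kdr encodes the main signalling receptor for VEGF-A on endothelial cells and lies at chr5:75932827-75978458 on the minus strand. Its level in ND was 0.777, 2.57 and 2.51 FPKM. At 7 weeks it was 9.36, 1.73 and 5.83, and at 10 weeks 6.72, 7.51 and 10.5. The 10-week libraries exceeded all ND libraries, whereas 7w 2 lay among them. The log2 difference was 1.37 for both times together (SE 0.39, limma adjusted p = 0.0122), 1.04 at 7 weeks (adjusted p = 0.0807) and 1.70 at 10 weeks (adjusted p = 0.00989). Without ND 1, the library with the lowest value, it was 1.04 and the call was lost (adjusted p = 0.0736), and without 7w 2 the 7-week difference was called (1.58, adjusted p = 0.00654). The counts behind these values were an estimated 25.9 to 365 reads.

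Lyve1 encodes a hyaluronan receptor of lymphatic and sinusoidal endothelium that also marks some tissue macrophages, and lies at chr7:110850607-110863239 on the minus strand. ND libraries gave 4.03, 5.24 and 4.79 FPKM. The values were 9.84, 4.49 and 8.85 at 7 weeks and 2.35, 0.353 and 10.2 at 10 weeks. The 10-week libraries thus lay on both sides of the ND range, and the lowest value rests on about 5.54 estimated reads. The log2 difference was −0.03 with an interval of −1.22 to 1.17 (limma adjusted p = 0.975), which leaves room for a change of more than 2-fold in either direction. Without 10w 3 the 10-week libraries were called lower (−1.41, adjusted p = 0.0206).

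By time point, 4 of the 9 genes were called lower and none higher at 7 weeks, where 43.7% of all genes were called and 22.4% were lower. At 10 weeks 4 were lower and 1 was higher, where 39.9% of all genes were called, 20.6% lower and 19.3% higher. In the direct comparison of 10 with 7 weeks no member was called by limma, against 15 of 11783 genes (0.127%), and 2 members had an unadjusted p below 0.05, as did 1829 of the 11783 genes. These were Vcam1, with a log2 difference of −0.34 (unadjusted p = 0.00891, adjusted p = 0.178), and Icam1, with 0.19 (unadjusted p = 0.0113, adjusted p = 0.189). A difference between the 2 times was therefore not shown for any of the 9, and the intervals were wide for the low genes (−0.32 to 1.64 for Kdr). Counted by overlap over both times, 4 members (Cdh5, Pecam1, Icam1 and Dnase1l3) had all 6 CDA-HFD libraries below all ND libraries, as did 21.3% of all genes.

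**Figure D2:**
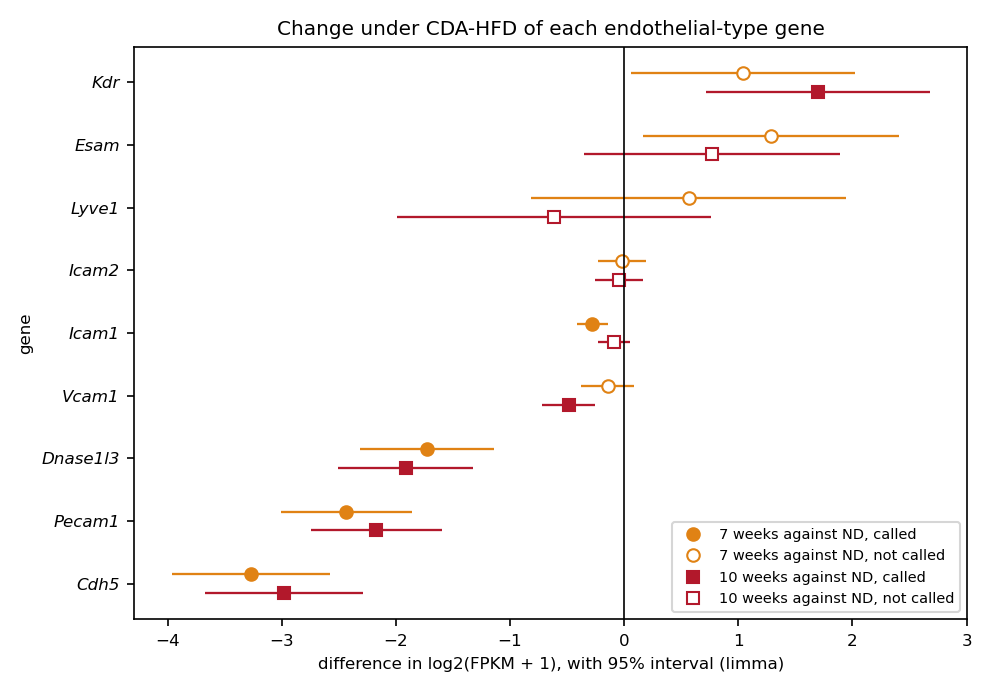
Difference in log2(FPKM + 1) from ND at 7 weeks (circles) and at 10 weeks (squares), with 95% limma intervals from 3 libraries per group; filled symbols passed an adjusted p of 0.05 and the vertical line marks no difference. Cdh5 (−3.27 and −2.98), Pecam1 (−2.44 and −2.17) and Dnase1l3 (−1.73 and −1.92) lie far to the left, and the intervals of Esam, Kdr and Lyve1 are wide.

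FPKM is scaled for transcript length, and levels were ordered across genes on this scale. The order is only as sound as the estimate of each gene. Gapdh, a gene that every cell uses, was listed at only 0.697 to 1.18 FPKM in ND and 2.27 to 11.1 under CDA-HFD. In ND the order was Vcam1 (142 FPKM), Icam1 (139.7), Cdh5 (80.9), Icam2 (72.4), Pecam1 (71.1), Dnase1l3 (26.8), Lyve1 (4.69), Esam (2.58) and Kdr (1.95). The neighbours Vcam1 and Icam1, Icam2 and Pecam1, Lyve1 and Esam, and Esam and Kdr overlapped between libraries. At 7 weeks Vcam1, Icam1 and Icam2 stayed at the top with 128, 115 and 71.4 FPKM, and the other 6 genes lay close together between 5.64 (Kdr) and 12.2 (Pecam1). At 10 weeks Icam1 (131) stood above Vcam1 (101) in every library, and the same 6 low genes lay between 4.29 (Lyve1) and 15.6 (Pecam1), with neighbours in this order overlapping. At both times the libraries of Cdh5 overlapped those of Esam and Kdr, while Pecam1 stayed above every library of these genes. Of the upper limit set by removal of duplicate reads, the highest member value, Vcam1 in ND 2, reached 44.5%. With a correction for this limit the difference of Cdh5 was −3.28 and that of Vcam1 −0.38.

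In the study's flow cytometry this macrophage gate starts from CD45.2+ CD11b+ leukocytes and is not meant to take endothelial cells, and 36 markers of sinusoidal endothelium were measured as a check. Their sum ranged from 158 to 205 FPKM in ND. After 7 weeks it ranged from 132 to 266 and after 10 weeks from 113 to 303, so the groups overlapped. Wnt9b was at 0 in all libraries, and Erg, a defining transcription factor of endothelium, did not exceed 0.969 FPKM in any. Of the 29 markers tested, 6 were higher and 2 were lower, where 22.8% of all genes were higher and 24.3% lower. Their median was 0.46 against −0.03 over all genes. The markers lower were Stab2, a scavenger receptor for hyaluronan, and Plvap, a protein of fenestral diaphragms. Stab2 stood at 53.6, 49.5 and 49.0 FPKM in ND, 8.74, 3.56 and 7.43 at 7 weeks and 5.42, 4.24 and 14.1 at 10 weeks (log2 −2.77, limma adjusted p = 4.19e-05). Plvap stood between 24.3 and 29.5 FPKM in ND and between 6.05 and 13.6 under CDA-HFD (−1.34). The largest increases were those of Flt1, a VEGF receptor (1.44), and Clec4g, a sinusoidal lectin (1.30). Clec4g was 13.7, 24.2 and 28.1 FPKM in ND, 77.0, 35.6 and 61.0 at 7 weeks and 45.4, 34.2 and 90.1 at 10 weeks. Cyp4b1, also among the most abundant, was not called (15.5, 16.9 and 14.6 FPKM on average in the 3 groups). The sum without Stab2 and Plvap, a trimming made after their values were seen, was 74.9 to 129.7 FPKM in ND and 101 to 279 under CDA-HFD.

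Endothelial markers differed between libraries of 1 group. Among the 6 CDA-HFD libraries, 10w 3 held the highest value for 16 of the 29 tested sinusoidal markers and for 7 of the 9 genes. The lowest value was in 10w 2 for 13 markers and for 5 of the 9 genes. The part of this in the spread of Esam, Kdr and Lyve1 between libraries was not tested. Without 10w 3, 1 of the 9 genes was higher and 5 were lower for CDA-HFD against ND, the counts with it. At 10 weeks against ND 1 was then higher and 5 lower, instead of 1 and 4. At 7 weeks against ND 1 was higher and 4 lower, instead of 0 and 4. The sum of vascular and portal endothelial markers, most of it Ly6a, was 94.7 to 171 FPKM in ND and 132 to 212 under CDA-HFD. Of its 8 tested genes 5 were higher and none lower. Cd34, a sialomucin of vessels and progenitors, had the largest increase (log2 2.47) and rose from 1.11 to 6.88 FPKM in ND to 12.3 to 41.8. Ackr1, a chemokine receptor of venules, averaged 3.48 FPKM at 7 weeks and 1.44 at 10 weeks, with each ND library listed at 0.

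**Figure D3:**
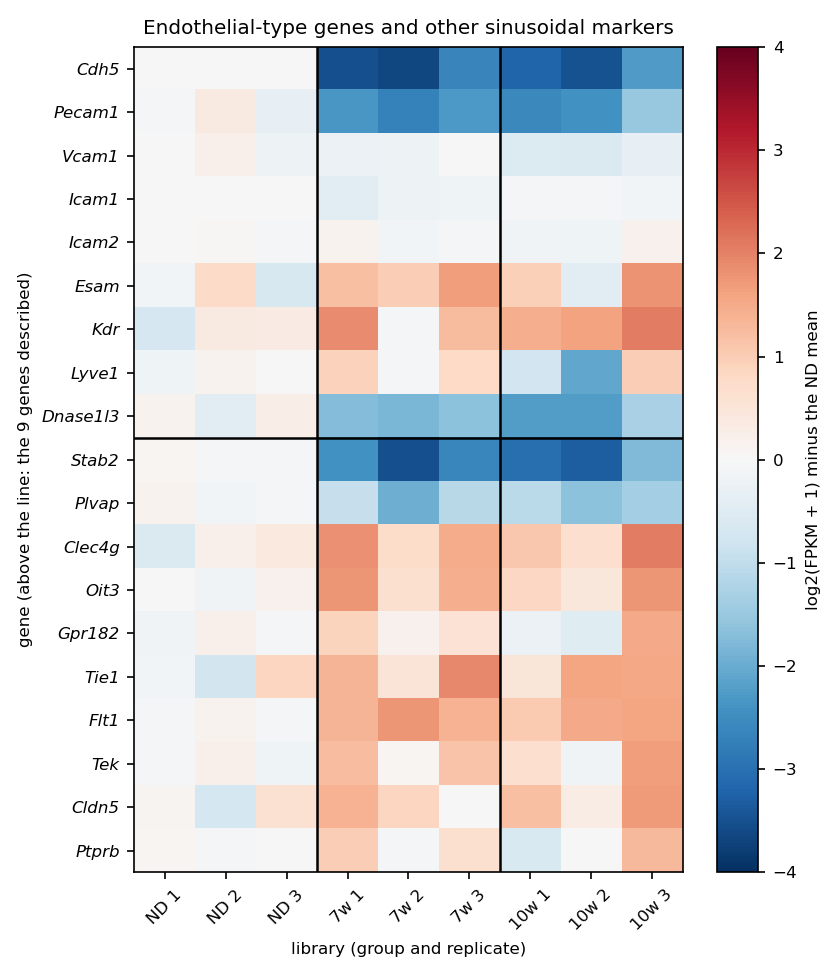
Colour gives log2(FPKM + 1) of each library minus the mean of the 3 ND libraries (blue lower, red higher) for the 9 genes, above the line, and for 10 other endothelial markers picked as examples after their values were seen. Cdh5, Pecam1 and Dnase1l3 are blue in all CDA-HFD libraries, as are Stab2 and Plvap, while Clec4g and Oit3 are red in all of them and Esam (10w 2) and Kdr (7w 2) each have 1 library below the ND mean, and 10w 3 is the reddest or least blue CDA-HFD library for most rows.

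Levels were also set against Clec4g within the same library. Clec4g was taken after its increase had been seen, so a lower ratio of a gene already called lower follows from the choice. A lower ratio can also follow from it for genes without a called change over both times, such as Icam2 and Lyve1. These ratios are a description. The ratio of Cdh5 to Clec4g was 5.93, 3.31 and 2.90 in ND and between 0.0799 and 0.197 under CDA-HFD. Pecam1 gave 1.98 to 4.95 in ND and 0.171 to 0.356 under CDA-HFD, and Dnase1l3 0.805 to 2.13 and 0.0939 to 0.189. The ratio of Kdr to Clec4g was 0.0569 to 0.106 in ND and 0.0485 to 0.219 under CDA-HFD, and that of Esam 0.0393 to 0.189 and 0.0421 to 0.157, so these ranges overlapped. Lyve1 was lower relative to Clec4g in every CDA-HFD library (0.0103 to 0.145) than in ND (0.170 to 0.295). The ratio of Cdh5 to Stab2 was 1.51 to 1.66 in ND and 0.704 to 1.62 under CDA-HFD, so these ranges overlapped too. Relative to the Kupffer cell lectin gene Clec4f, whose ND values are compressed, Cdh5 was 0.265 to 0.278 in ND and 0.0365 to 0.0871 under CDA-HFD, and relative to Timd4 its ratio was 0.388 to 0.404 in ND, with ranges of 0.422 to 0.852 after 7 weeks and 1.37 to 3.55 after 10 weeks.

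**Figure D4:**
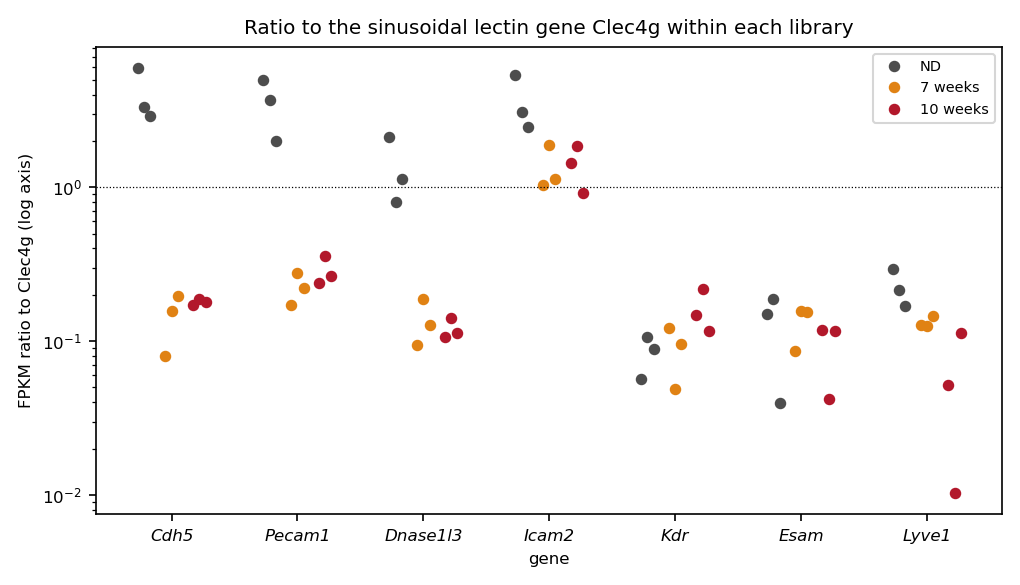
Ratio of the FPKM of 7 of the genes to that of Clec4g in the same library (vertical axis, logarithmic); each point is 1 library and the dotted line marks equal levels. The ratios of Cdh5, Pecam1, Dnase1l3, Icam2 and Lyve1 are lower in all 6 CDA-HFD libraries than in ND, and those of Kdr and Esam overlap. Clec4g was itself higher under CDA-HFD, and Icam2 and Lyve1 had no called difference over both times.

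The genes with the most similar profiles over the 9 libraries were searched among 5622 genes that varied by at least 1 log2 unit. The measure was the root mean square difference between log2(FPKM + 1) profiles, each centred on its mean. Closest to Cdh5 was Chp2 (0.16), a calcineurin-like protein gene, followed by Fgfr1 (0.19) and Dysf (0.22). Chp2 stands on the Kupffer cell identity list, which was chosen with earlier results of these data known. Chp2 was 166.5, 164 and 176 FPKM in ND and between 12.1 and 36.9 under CDA-HFD. Pecam1 was closest to Ly6d (0.19), Tmem26 (0.20) and Cttn (0.23), and Dnase1l3 to Rxra (0.18), Ppap2b (0.18) and Rasgrp2 (0.22). Vcam1 lay nearest to Maged1 (0.15), Fndc3a (0.16) and Klf13 (0.17), and Icam1 to Snx14 (0.18), Parp9 (0.18) and Txnl4b (0.19). For the low genes the distances were larger. Kdr was closest to Cd300lg (0.38), an endothelial mucin-type receptor, Timp3 (0.38) and Nmb (0.39). Esam was closest to Slc26a10 (0.31), Upp1 (0.33) and Tek (0.42), the angiopoietin receptor. Lyve1 had Snhg9 (0.41), Ctla2a (0.45) and Il20rb (0.46), and Icam2, which hardly varied, had Lifr (0.23), Siglecf (0.24) and Cask (0.24).

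Partners of the junction proteins were measured next. VE-cadherin is anchored inside the cell by catenins, and Jup (plakoglobin) and Ctnnd1 (p120 catenin) had the largest decreases among 12 tested junction partners. Jup was 70.9, 65.9 and 66.5 FPKM in ND and between 18.2 and 25.9 under CDA-HFD (log2 −1.60, SE 0.12, limma adjusted p = 3.73e-07). Ctnnd1 was 83.6, 97.2 and 78.2 FPKM in ND and between 28.4 and 38.6 under CDA-HFD (−1.35, SE 0.09, adjusted p = 1.36e-07). In both, the groups did not overlap. The catenin genes did not all follow them. Ctnna1 (α-catenin) was lower by less (−0.57), and Ctnnb1 (β-catenin) was not called (0.12, limma adjusted p = 0.216). Over all genes 24.3% were lower and 22.8% higher. Of the 12 junction partners 4 were lower and 2 higher, with a median of 0.00. F11r, which encodes the adhesion protein JAM-A, was among those higher (0.58).

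Among receptors and ligands of vessel growth, 8 of 14 tested receptor genes were higher and 1, Acvrl1, a receptor for BMP9, was lower (−0.77). The median was 0.81. The largest increases were in Nrp2 (4.46) and Cxcr4 (4.13). Nrp1 and Nrp2 encode neuropilins, co-receptors for VEGF that are also found on macrophages. Nrp2 stood at 0.529, 0.0400 and 0.0406 FPKM in ND and between 16.4 and 38.7 under CDA-HFD, without overlap, and Nrp1 at 43.1 to 48.0 in ND and 48.2 to 71.2 under CDA-HFD. Vegfa, the ligand of the receptor made from Kdr, had a listed 0 in each ND library and values of 50.6, 49.6 and 53.7 FPKM at 7 weeks and 41.1, 32.1 and 24.9 at 10 weeks. Of the 8 ligand genes in the table, 3 were tested, and Vegfa was the only one called. A listed 0 is not taken as absence, because Gapdh, a gene that every cell uses, was itself listed low in all groups. It had only 0.697 to 1.18 FPKM in ND and 2.27 to 11.1 under CDA-HFD.

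**Figure D5:**
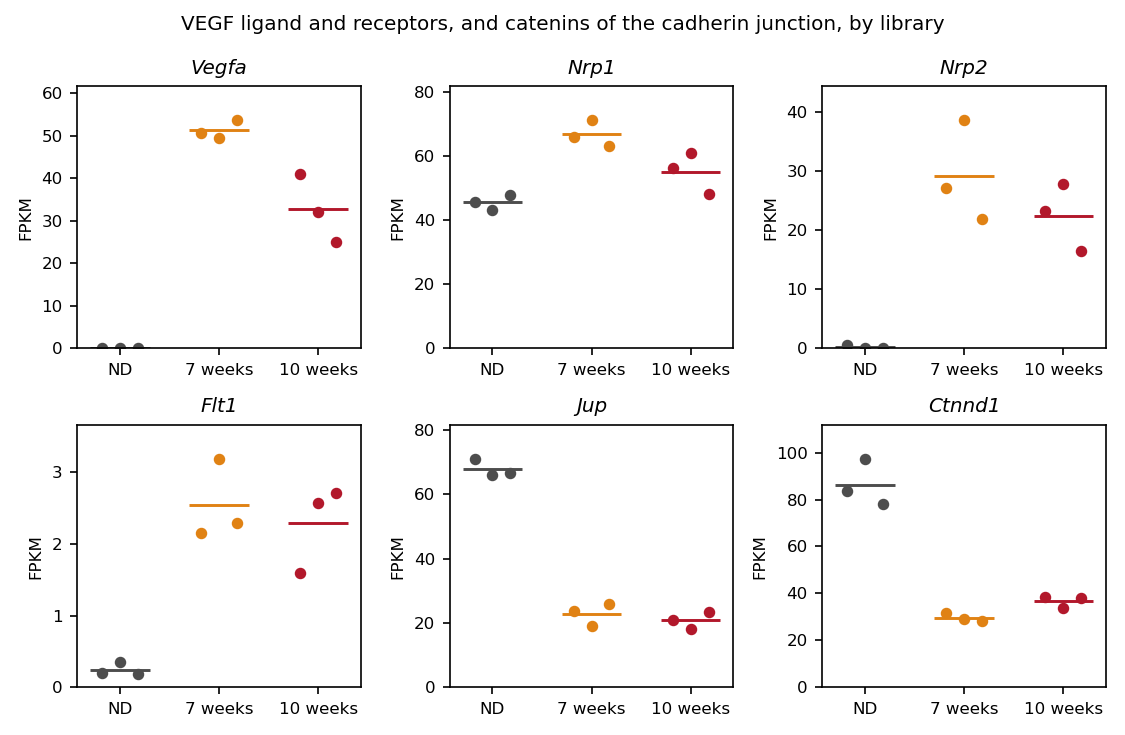
Level in FPKM (vertical axes from 0, scaled per gene) of the VEGF ligand gene Vegfa, the VEGF receptor and co-receptor genes Nrp1, Nrp2 and Flt1, and the catenin genes Jup and Ctnnd1; points are libraries and bars are means of 3. Vegfa and Nrp2 are at or near 0 in ND and between 16.4 and 53.7 in CDA-HFD. Jup and Ctnnd1 are lower in all 6 CDA-HFD libraries, and other catenin genes are not shown.

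The integrins that bind VCAM-1 and the ICAM proteins are made by leukocytes, so ligand and receptor genes could be read in the same libraries. Of 14 tested genes for such counter-receptors and their anchors, 7 were higher and 4 were lower, with a median of 0.17. The largest decreases were in Itgb7 (−1.72), 103 to 121 FPKM in ND and 24.8 to 41.5 under CDA-HFD, and in Itga9 (−1.39), 38.8 to 51.2 and 13.2 to 19.9, which encode integrin subunits that take part in binding VCAM-1. The largest increases were in Itgax (3.81) and Spn (3.11), the genes of CD11c and of the sialomucin CD43. Itgal, the α chain of LFA-1, was 162, 164 and 162 FPKM in ND and 110 to 129 under CDA-HFD. Itgam, the α chain of Mac-1, was 20.2 to 35.9 in ND and 72.2 to 99.7 under CDA-HFD. Itgb2, their shared β chain, was 191 to 201 and 193 to 210.5 FPKM. Of 8 tested relatives of the ICAM and VCAM genes, 4 were higher and 2 lower, with a median of 0.65. Alcam (4.42) and Pvr (1.44) had the largest increases, and Vsig4 (−1.09), a complement receptor of Kupffer cells, and Cadm1 (−0.49) were lower.

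Genes that handle hyaluronan, the ligand of the receptor made from Lyve1, were divided, 3 higher and 4 lower of 9 tested, with a median of −0.21. Stab2 and Hyal2, a hyaluronidase at the cell surface (76.3 to 81.5 FPKM in ND, 27.5 to 39.4 under CDA-HFD, log2 −1.25), had the largest decreases. Layn, a hyaluronan receptor, was higher (1.47), and so was Tnfaip6, the gene of a hyaluronan-binding protein, listed at 0 in ND and averaging 6.40 FPKM at 7 weeks and 3.83 at 10 weeks. Cd44, the main hyaluronan receptor of leukocytes, was 140.5 to 149.99 FPKM in ND and 111 to 135 under CDA-HFD (−0.21). Among 15 tested transcription factors of endothelium, 4 were higher and 3 lower, with a median of −0.05. For this and the hyaluronan list, the shares over all genes were 22.8% higher and 24.3% lower. Elk3 (1.87) and Klf4 (1.79) had the largest increases and Foxo1 (−1.06) and Ets1 (−0.58) the largest decreases. Of the 10 sinusoidal genes that macrophages share, 6 were higher and 4 lower, among them Fcgr2b, an inhibitory Fc receptor (27.0 ± 1.39 FPKM in ND, SD, n = 3, and 188 to 214 under CDA-HFD, log2 2.84), and Mrc1, the mannose receptor (−1.66).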

How the data were processed

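The 9 members and all gene lists were chosen with earlier results of these data known. The authors amplified cDNA with SMART-Seq HT, made Nextera XT libraries and sequenced single-end reads of 75 bases. Their processing notes name Trimmomatic (0.36.0), HISAT2 (2.2.1), featureCounts (2.0.1) and GRCm38, and the methods add removal of duplicate reads with Picard. For read counts the methods name either Cufflinks or featureCounts, without saying which of them served these libraries. The authors deposited FPKM values for each gene symbol; the methods speak of TPM, but library sums differed (444816 to 458788), so the values were treated as FPKM. No comparison columns of the authors were used.

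Of 24776 entries, 1 was incomplete and left out, and 721 entries sharing 257 symbols were summed per symbol. Depth was estimated from the steps of low values, of which 67.0% to 71.6% lay within 0.1 read of a whole number, and 1 read per kb was worth 0.160 to 0.186 FPKM. Recovery was too incomplete for a count test. Between 10990 and 11273 genes reached 1 FPKM. Coordinates are from the GRCm38 annotation, and promoters are RefSeq sequences.

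Differences were tested with limma (3.58.1, R 4.3.3) on log2(FPKM + 1), using the trend and robust options of eBayes, with all 9 libraries in 1 model of 3 group means. A gene was tested where 3 or more libraries reached 1 FPKM, and p-values were two-sided and Benjamini-Hochberg adjusted over all of them. All 9 members passed this filter. Differences on the log2(FPKM + 1) scale understate the change of low genes. SDs between libraries follow the ± sign. All 9 members were named, and from each list up to 4 called genes, those with the 2 largest increases and the 2 largest decreases. For sinusoidal markers the 4 most abundant were added, and for members their ligands, receptors and partners. One gene that this rule names is not reported here. Alternatives were other pseudocounts, filters and scalings, another variance model, fewer groups in the fit, a replicate block, a correction for the upper limit and leaving out each library.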

Additional observations from a re-analysis of the deposited data

How the results depend on the processing

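The number of members called was 6 for CDA-HFD against ND and ranged from 3 (without ND 1) to 7 when 1 library was left out. It ranged from 4 to 5 at 7 weeks, from 5 to 6 at 10 weeks, and was 0 throughout for 10 against 7 weeks. Cdh5, Pecam1 and Dnase1l3 kept their calls against ND under every alternative run. Without trend and robust in limma, Vcam1 (adjusted p = 0.0529) and Icam1 (adjusted p = 0.0872) were not called. Directions turned only in differences that were not called. For Lyve1 under CDA-HFD the log2 difference was 0.084 with a pseudocount of 5, 0.10 after quantile normalization and −0.42 (without 10w 3) to 0.34 (without 10w 2) when 1 library was left out. At 10 weeks leaving out 1 library gave −1.41 to 0.11, again without 10w 3 and 10w 2. Icam2 at 7 weeks was 0.0072 with TMM scaling and −0.097 to 0.025 with 1 library left out, and at 10 weeks it was −0.16 to 0.020. For 10 against 7 weeks, leaving out 1 library gave −0.074 to 0.60 for Cdh5, −0.061 to 0.47 for Pecam1, −0.14 to 0.051 for Icam2 and −1.03 to 0.082 for Esam. The negative values of Cdh5 and Pecam1 came without 10w 3. The cause of these turns was not tested.

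Replicate numbers showed no clear pairing of the libraries. Deviations from the group means correlated between −0.06 and 0.09 in 9 same-numbered pairs and between −0.10 and 0.08 in 18 others. With 3 libraries per group mean, a pairing that touches few genes could be missed. With a replicate block 6, 4, 5 and 0 members were called in the 4 comparisons, as without it. The 3 libraries per group and the low read numbers of Esam, Kdr and Lyve1 limit what could be detected for those genes.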

Other observations

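Markers of other cells that make some of these proteins were also measured. Platelets carry PECAM-1, ICAM-2 and ESAM. The summed level of 12 platelet and megakaryocyte markers was 341 to 357 FPKM in ND and 304 to 381 under CDA-HFD, nearly all of it Clec1b and Pf4. Clec1b, also a Kupffer cell gene, was 235 to 246 FPKM in ND and 95.1 to 137 under CDA-HFD, and Pf4 was 95.8 to 105 and 203 to 244. B cell markers, with 5 of 6 tested genes lower and none higher, summed to 213 to 238 FPKM in ND and 89.8 to 132 under CDA-HFD. T and NK cell markers, with 2 of 10 tested genes higher and none lower, summed to 37.5 to 42.9 and 38.5 to 93.6 FPKM. Neutrophil markers summed to 132 to 252 and 142 to 305 FPKM, and dendritic cell markers to 180 to 193 and 130 to 193. In the B cell, T and NK, neutrophil and dendritic cell sums 10w 3 was the highest CDA-HFD library. The part of all these cells in the values of the 9 genes was not tested.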
